A study of Sus scrofa with 12 samples.

Results

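Fibronectin (FN1), vitronectin (VTN), tenascin-C (TNC), SPARC, SPARC-like 1 (SPARCL1, also called hevin) and EFEMP2 (also called fibulin-4) are secreted adhesive and matricellular glycoproteins, and their transcript signals are described here in stented coronary arteries of pigs. Every probe set whose only gene symbol in the array annotation is one of these 6 was taken, whatever its signal, which gave 13 of the 24123 probe sets on the array. FN1 had 4 of them, EFEMP2 had 3, SPARC and SPARCL1 had 2 each, and TNC and VTN had 1 each. Of the 13, 10 passed a filter that removed the 30% of probe sets with the lowest mean signal, and at least 1 of the 10 belonged to each gene. The 3 below the filter were Ssc.22199.1.A1_at and Ssc.5580.1.S1_at of FN1 and Ssc.18517.1.A1_at of SPARCL1.

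Coronary arteries of Yorkshire farm pigs were collected 28 days after angioplasty and stent implantation, and tissue was dissected by hand off the stent for RNA. The groups were arteries with a zotarolimus-eluting stent (ZES), with a sirolimus-eluting stent (SES) and with a bare metal stent (BMS), and the series title states that the drug-eluting stents were overlapping. Each group held 4 segments of 2 pigs, 1 array per segment, which makes 12 arrays and 6 pigs, and no unstented artery was analysed here. Both drugs block the mTOR kinase and slow smooth muscle growth, and zotarolimus differs from sirolimus by a tetrazole ring that stands where sirolimus has a hydroxyl. The labels state no drug doses. Within a stent type the segments are numbered 1 to 4, and each pig gave 1 and 2 or 3 and 4. ZES 2 and 4, SES 4, and BMS 2 and 4 were from the left anterior descending artery (LAD), SES 1 was from the left circumflex artery, and the other 6 were from the right coronary artery (RCA). Segments of the same animal enter each group, so the p-values reflect mostly how far segments differ, and 2 pigs a group say little of the spread between animals.

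Adhesive glycoproteins such as fibronectin and vitronectin carry short motifs that integrins on the cell surface bind, and so fasten cells to collagen, fibrin and the provisional matrix of a wound. Matricellular proteins such as tenascin-C, SPARC and SPARCL1 sit in the same matrix but mainly adjust how tightly cells hold it, how collagen fibrils assemble and how growth factors reach their receptors. In injured arteries tenascin-C and SPARC are known as products of activated smooth muscle cells and fibroblasts, while EFEMP2 is known for its role in building elastic fibres, where it brings lysyl oxidase to elastin.

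Values are log2 signals, so that a difference of 1 is a doubling. On each array between 61.0% and 74.5% of all probe sets lay above background, taken as the 95th percentile of 59 control probe sets for sequences that had not been spiked in. Hybridisation spike-in controls read 15.30 ± 0.58 with ZES, 15.09 ± 0.43 with SES and 16.30 ± 0.38 with BMS (mean ± SD over 4 arrays). For the pair used below as the GAPDH control, the difference between the 3′ and 5′ control probe sets of GAPDH was 3.66 ± 0.19 with ZES, 2.71 ± 0.35 with SES and 4.16 ± 0.50 with BMS. In both controls the SES arrays all lay below the BMS arrays, with a two-sided exact permutation p of 0.0286, which no arrangement of the 70 can undercut (adjusted p = 0.0686 over 12 tests). A second GAPDH pair did not separate these groups. It read 3.65, 2.46, 4.07 and 4.14 on SES arrays and 2.84, 4.22, 4.26 and 4.47 on BMS arrays. The 3′ and 5′ pair of EF1A, another control gene, did separate them, at 2.0 ± 0.21 with SES and 2.95 ± 0.76 with BMS. The tissue carried the markers of an artery wall: of 12 smooth muscle contractile genes measured, 11 were above background on every ZES array, 11 on every SES array and 10 on every BMS array.

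SES was set against BMS to compare a sirolimus-eluting stent with a stent that carries no drug. Which segments lay in an overlap of stents is not stated in the labels, so the drug, the overlap and other differences between the stents cannot be told apart. Signals of TNC, VTN, SPARC, SPARCL1 and EFEMP2 were lower around SES in their means, while the brightest FN1 probe set was higher. None of these differences passed an adjusted p of 0.05 in limma: 0 of the 10 member probe sets was called, against 0.679% of all 16799 probe sets tested. At an unadjusted p under 0.05, 7 of the 10 passed, against 14.3% of all probe sets; 6 were lower (7.01% of all) and 1, of FN1, was higher (7.33% of all). In 6 of the 10 the SES and BMS arrays did not overlap, against 8.74% of all probe sets, with 5 lower (4.51%) and 1 higher (4.23%). Differences were below 0 for 9 of 10 members, against 51.2% of all probe sets. The median difference was -1.32 over the 10 member probe sets and -0.02 over all probe sets. The members were chosen with earlier results of these data known, and several of the 10 probe sets share a gene. The shares are therefore given as a description only. In tissue measured as a whole, fewer cells of a type and less RNA per cell cannot be told apart. The plot of the 10 probe sets by array shows the values behind these counts.

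**Figure D1:**
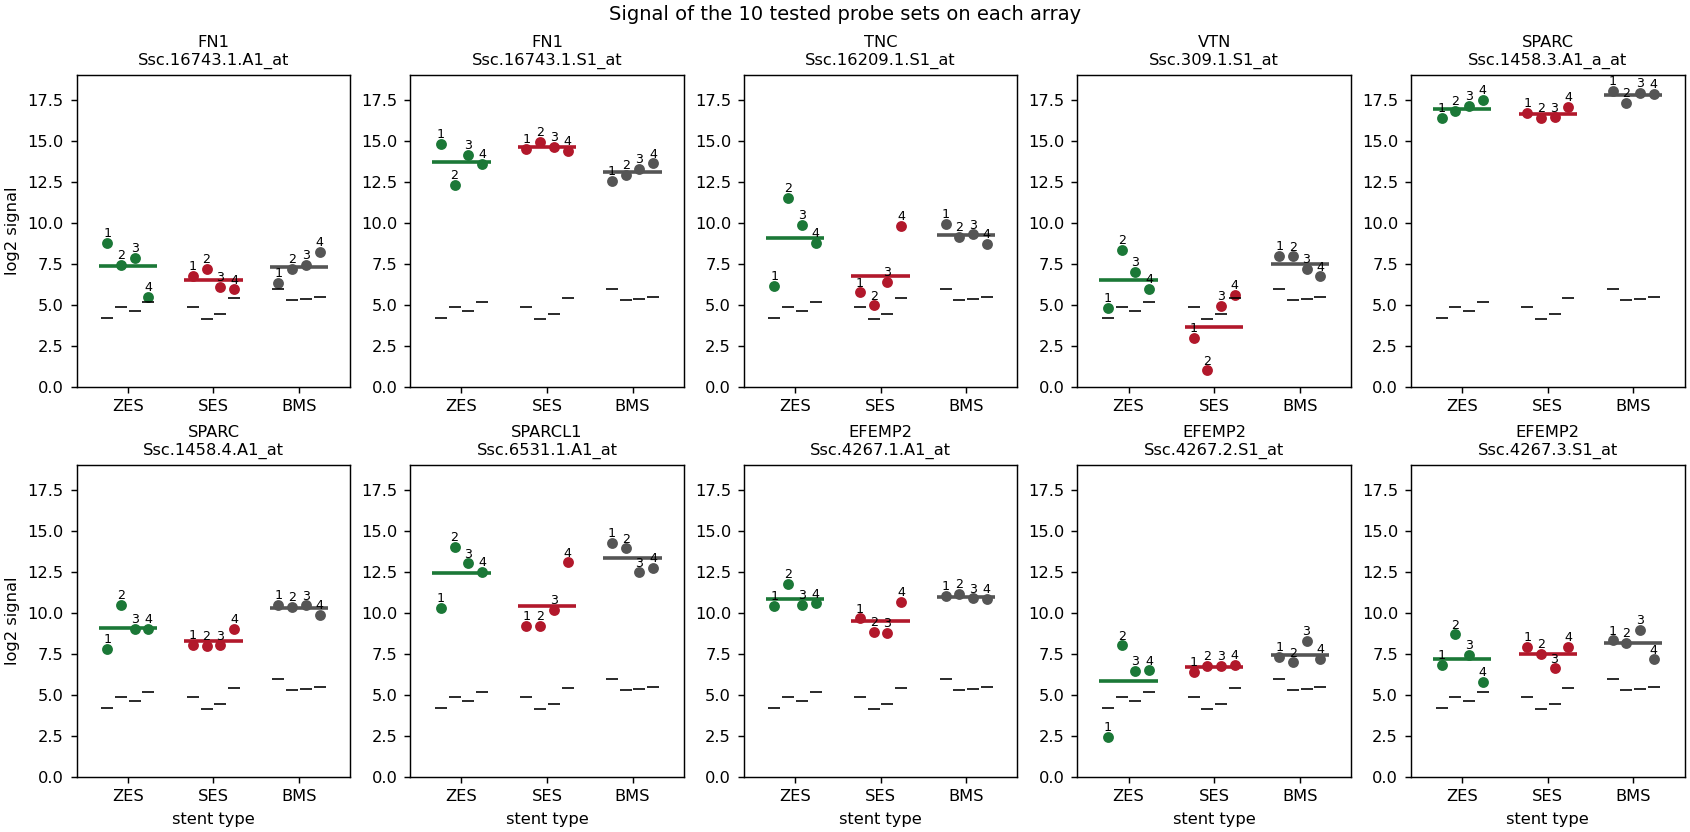
Log2 signal of the 10 tested probe sets on each of the 12 arrays, by stent type; points are arrays numbered by segment, thick bars are group means of 4 arrays and thin black ticks are the background level of each array. SES 4 lies near the BMS arrays for TNC, SPARCL1 and EFEMP2 Ssc.4267.1.A1_at, and ZES 1 lies near the other SES arrays for TNC and SPARCL1.

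Fibronectin, which assembles into fibrils that cells grip through integrins, was read most brightly by Ssc.16743.1.S1_at. This probe set had 14.81, 12.30, 14.14 and 13.59 on ZES arrays 1 to 4, 14.54, 14.96, 14.62 and 14.39 on SES arrays, and 12.54, 12.93, 13.29 and 13.63 on BMS arrays. All 4 SES arrays lay above all 4 BMS arrays, while the ZES arrays spanned almost the whole range of both. The group means were 13.71 ± 1.06 with ZES, 14.63 ± 0.24 with SES and 13.10 ± 0.47 with BMS. Against BMS, SES was higher by 1.53 (SE 0.40, 95% interval 0.69 to 2.37), or 2.89-fold, with limma adjusted p = 0.0825. ZES minus BMS was 0.61 (interval -0.23 to 1.45, adjusted p = 0.676) and ZES minus SES was -0.92 (interval -1.76 to -0.07, adjusted p = 0.449). By mean the order was SES, ZES, BMS, and no neighbours in it differed past the adjusted threshold. SES minus BMS passed the threshold when ZES 1 (adjusted p = 0.0496) or ZES 2 (adjusted p = 0.0369) was left out. The difference itself then stayed at 1.53, since these arrays enter only the shared estimate of spread. Left out alone, no other array took SES minus BMS past the threshold. Its adjusted p was 0.223 without a variance trend, 0.227 with artery as a further term and 0.115 with median centring. Over the sets with an array or pig left out, the difference ran from 1.17 to 1.89.

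The other FN1 probe sets did not repeat this pattern. Ssc.16743.1.A1_at had 8.78, 7.43, 7.87 and 5.50 on ZES arrays, 6.74, 7.19, 6.12 and 5.95 on SES arrays, and 6.35, 7.19, 7.45 and 8.23 on BMS arrays. The groups overlapped, and SES minus BMS had the opposite sign, -0.81 (SE 0.66, interval -2.19 to 0.58, adjusted p = 0.607). The gap between the 2 probe sets, S1 minus A1, was 6.31 ± 1.33 with ZES, 8.13 ± 0.40 with SES and 5.79 ± 0.32 with BMS. The SES and BMS arrays did not overlap in this gap, which was 2.34 larger with SES (two-sided exact permutation p = 0.0286, the smallest possible, adjusted p = 0.114 over 12 tests). The permutation took arrays as units and left the pigs out of account. The GAPDH control difference was lower on the same SES arrays, though the second GAPDH pair overlapped between the groups, and its part in the FN1 gap was not tested. Ssc.22199.1.A1_at lay above background on 3 ZES, 2 SES and 1 BMS arrays, and Ssc.5580.1.S1_at on 2 ZES, 0 SES and 0 BMS arrays. Without the filter the stent differences of these 2 dim probe sets lay between -0.19 and 1.40, with adjusted p-values of 0.782 or more.

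Vitronectin is best known as a plasma protein made in the liver that binds integrins and plasminogen activator inhibitor. Its single probe set, Ssc.309.1.S1_at, had 4.82, 8.35, 7.01 and 5.96 on ZES arrays, 3.01, 1.0, 4.91 and 5.60 on SES arrays, and 8.01, 7.96, 7.20 and 6.74 on BMS arrays. Every SES array lay below every BMS array, SES 1 and SES 2 lay below background, and the ZES arrays overlapped both groups. The means were 6.54 ± 1.5 with ZES, 3.63 ± 2.07 with SES and 7.48 ± 0.62 with BMS. The SES minus BMS difference of -3.85 (SE 0.96, interval -5.86 to -1.83, adjusted p = 0.0722) rests on a measured level in only 2 of the 4 SES segments. With 32 added to every linear signal it was -2.05 (adjusted p = 0.0529). ZES minus BMS was -0.94 (interval -2.96 to 1.07, adjusted p = 0.809), and ZES minus SES was 2.90 (interval 0.89 to 4.92, adjusted p = 0.279). SES minus BMS passed without SES 4, the only LAD segment with SES, at -4.55 (adjusted p = 0.0198). In that fit 2 of the 3 SES arrays that remain lay below background.

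The VTN signal was set beside 10 other genes of liver-made plasma proteins with a probe set. Of these, 3 passed the filter, and their SES minus BMS differences had a median of -0.04. Albumin (ALB), the most abundant liver-made plasma protein, lay above background on 4 of 12 arrays. APOA1, an apolipoprotein of high-density lipoprotein, lay above background on all 12. Haptoglobin (HP) and the fibrinogen chain FGB lay above background on 4 and 6 arrays. Of the rest, APOB and SERPINA1 did so on 0 arrays, TTR and the fibrinogen chain FGG on 1 each, AHSG on 3 and TF on 5.

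Tenascin-C, a large matricellular protein known from healing wounds and from neointima, had signals from Ssc.16209.1.S1_at. They were 6.14, 11.52, 9.89 and 8.80 on ZES arrays, 5.76, 4.97, 6.39 and 9.83 on SES arrays, and 9.95, 9.17, 9.31 and 8.73 on BMS arrays. SES 1, 2 and 3 lay below all BMS arrays, SES 4 lay among them, and ZES 1 lay with the low SES arrays although ZES 2 was the highest of all 12. The means were 9.09 ± 2.26 with ZES, 6.74 ± 2.14 with SES and 9.29 ± 0.50 with BMS. The pooled within-group SD of 1.82 was larger than that of 91.5% of the probe sets tested, whose median was 0.828. The difference SES minus BMS was -2.55 (SE 0.97, interval -4.61 to -0.49, adjusted p = 0.228), and -0.094 with the spike-in level as covariate (adjusted p = 0.997). ZES minus BMS was -0.20 (interval -2.26 to 1.86, adjusted p = 0.969), and ZES minus SES was 2.35 (interval 0.29 to 4.40, adjusted p = 0.422). By mean the order was BMS, ZES, SES, with no neighbours apart past the threshold. Without SES 4, the only LAD segment with SES, SES minus BMS was -3.60 and passed (adjusted p = 0.0333). That fit sets SES arrays without the LAD against BMS arrays that include it.

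SPARC, also called osteonectin, binds collagen and loosens the hold of cells on matrix, and its 2 probe sets stood at different places on the signal scale. Ssc.1458.3.A1_a_at had 16.41, 16.82, 17.17 and 17.53 on ZES arrays, 16.70, 16.40, 16.44 and 17.09 on SES arrays, and 18.05, 17.33, 17.96 and 17.86 on BMS arrays. All SES arrays lay below all BMS arrays, and ZES 4 was the only ZES array above the lowest BMS array. SES minus BMS was -1.14 (SE 0.28, interval -1.73 to -0.55, adjusted p = 0.0697), ZES minus BMS was -0.81 (interval -1.41 to -0.22, adjusted p = 0.424), and ZES minus SES was 0.33 (interval -0.27 to 0.92, adjusted p = 0.765). The probe set ranked 6th to 11th by signal on ZES arrays, 9th to 13th on SES arrays and 9th to 12th on BMS arrays, at the top of the scale, where a rank has little room to move. After quantile normalization, which sets a value by its rank on the array, SES minus BMS was -0.03 (adjusted p = 0.930) and ZES minus BMS was 0.10 (adjusted p = 0.856), with the sign turned. The spike-in controls, which are also bright, differed by -1.21 for SES minus BMS and by -1.0 for ZES minus BMS. Their part in the SPARC difference was not tested beyond a fit that held the spike-in level as covariate, in which SES minus BMS was -0.17 (adjusted p = 0.942).

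The second SPARC probe set, Ssc.1458.4.A1_at, gave a difference that quantile normalization did not remove. It had 7.81, 10.50, 9.02 and 9.01 on ZES arrays, 8.05, 7.99, 8.02 and 9.04 on SES arrays, and 10.48, 10.38, 10.46 and 9.88 on BMS arrays. SES and BMS arrays did not overlap, and ZES 2 alone among ZES arrays reached the BMS range. The means were 9.09 ± 1.10 with ZES, 8.27 ± 0.51 with SES and 10.30 ± 0.28 with BMS. SES minus BMS was -2.03 (SE 0.46, interval -3.0 to -1.05, adjusted p = 0.0549), or 0.245-fold, and -2.01 after quantile normalization (adjusted p = 0.0618). ZES minus BMS was -1.21 (interval -2.19 to -0.24, adjusted p = 0.465) and ZES minus SES was 0.81 (interval -0.16 to 1.79, adjusted p = 0.586). This was the probe set nearest to the threshold among the 10. SES minus BMS passed with no filter on low signals (adjusted p = 0.0374), with median centring (adjusted p = 0.0480) and with 32 added to linear signals (adjusted p = 0.0359). It also passed without SES 4 (-2.28, adjusted p = 0.0196), without ZES 1 (adjusted p = 0.0330), without ZES 2 (adjusted p = 0.0336) and without ZES 4 (adjusted p = 0.0447). Ssc.1458.3.A1_a_at passed without SES 4 (-1.28, adjusted p = 0.0307), without ZES 1 (adjusted p = 0.0333) and without ZES 4 (adjusted p = 0.0412). For Ssc.1458.3.A1_a_at the adjusted p was 0.212 without a variance trend, 0.221 with means per pig and 0.228 with artery as a further term. For Ssc.1458.4.A1_at the adjusted p was 0.154, 0.0584 and 0.177 in the same order.

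SPARCL1, a relative of SPARC that shares its collagen-binding part, was measured by Ssc.6531.1.A1_at. The signals were 10.29, 14.02, 13.03 and 12.52 on ZES arrays, 9.20, 9.20, 10.19 and 13.09 on SES arrays, and 14.26, 13.94, 12.47 and 12.74 on BMS arrays. SES 1, 2 and 3 lay below all BMS arrays and below all ZES arrays, whereas SES 4 lay within the BMS range. The means were 12.47 ± 1.58 with ZES, 10.42 ± 1.84 with SES and 13.35 ± 0.88 with BMS. For SPARCL1, SES minus BMS was -2.94 (SE 0.78, interval -4.59 to -1.28, adjusted p = 0.0873), or 0.131-fold, and ZES minus SES was 2.05 (interval 0.40 to 3.70, adjusted p = 0.375). ZES minus BMS was -0.89 (interval -2.54 to 0.76, adjusted p = 0.772). Without SES 4, the only LAD segment with SES, SES minus BMS was -3.84 (adjusted p = 0.00665). ZES minus SES was then 2.95 (adjusted p = 0.0368), so both passed. The other SPARCL1 probe set, Ssc.18517.1.A1_at, lay above background on 0 of 12 arrays and is listed at 0 on 5, so it gave no level.

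EFEMP2, which elastic fibres need for their assembly, had 3 tested probe sets. The brightest, Ssc.4267.1.A1_at, had 10.45, 11.78, 10.48 and 10.59 on ZES arrays, 9.66, 8.85, 8.76 and 10.68 on SES arrays, and 11.05, 11.15, 10.89 and 10.83 on BMS arrays. The BMS arrays lay close together, every SES array lay below them, and SES 4 came nearest to them. The means were 10.83 ± 0.64 with ZES, 9.49 ± 0.89 with SES and 10.98 ± 0.15 with BMS. In this probe set SES minus BMS was -1.49 (SE 0.40, interval -2.35 to -0.64, adjusted p = 0.0917), and ZES minus SES was 1.34 (interval 0.49 to 2.19, adjusted p = 0.230). ZES minus BMS was -0.16 (interval -1.01 to 0.70, adjusted p = 0.939). Without SES 4, the only LAD segment with SES, SES minus BMS was -1.89 (adjusted p = 0.0141) and ZES minus SES was 1.73 (adjusted p = 0.0322).

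The dimmer EFEMP2 probe sets had smaller SES differences and lower ZES means. Ssc.4267.2.S1_at had 2.44, 8.01, 6.47 and 6.50 on ZES arrays, 6.38, 6.77, 6.75 and 6.85 on SES arrays, and 7.29, 6.98, 8.31 and 7.20 on BMS arrays. Every SES array lay just below every BMS array, and ZES 1 lay under background. Here SES minus BMS was -0.76 (interval -2.57 to 1.05, adjusted p = 0.730) and ZES minus BMS was -1.59 (interval -3.40 to 0.22, adjusted p = 0.611). Ssc.4267.3.S1_at had means of 7.18 ± 1.21 with ZES, 7.49 ± 0.62 with SES and 8.16 ± 0.74 with BMS, and its groups overlapped. For it SES minus BMS was -0.67 (interval -1.92 to 0.58, adjusted p = 0.646). By mean the order was BMS, ZES, SES for the brightest EFEMP2 probe set and BMS, SES, ZES for the other 2. The gap between Ssc.4267.1.A1_at and Ssc.4267.3.S1_at was 3.64 ± 0.82 with ZES, 2.0 ± 0.61 with SES and 2.82 ± 0.72 with BMS. ZES minus SES in this gap was 1.65, with no overlap (two-sided exact permutation p = 0.0286, the smallest possible, adjusted p = 0.114).

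The fits with an array control as covariate moved several of these SES minus BMS differences. With the spike-in level in the fit, SPARCL1 was -1.24, VTN -2.53, FN1 Ssc.16743.1.A1_at -2.30 and EFEMP2 Ssc.4267.3.S1_at -1.01, and EFEMP2 Ssc.4267.2.S1_at turned to 0.98. With the GAPDH control in the fit, SPARC Ssc.1458.3.A1_a_at was -0.57, EFEMP2 Ssc.4267.2.S1_at -2.73 and EFEMP2 Ssc.4267.3.S1_at -1.52. No member had an adjusted p under 0.793 in the first or under 0.741 in the second, and both controls separate the SES arrays from the BMS arrays.

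**Figure D2:**
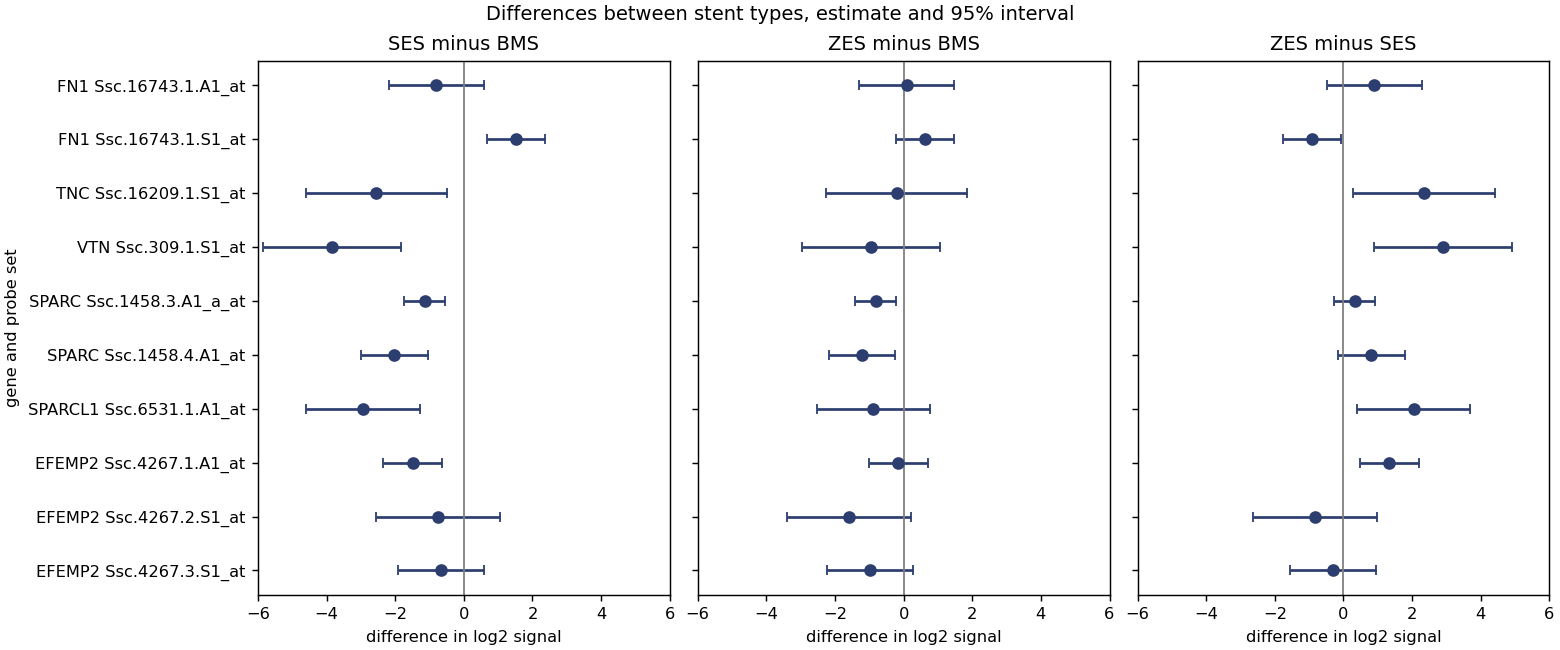
Difference in log2 signal between stent types for the 10 tested probe sets, estimate (point) and 95% interval (bar) from limma; the vertical line is at 0. Intervals for SES minus BMS exclude 0 for 7 probe sets, those for ZES minus BMS only for the 2 of SPARC, and those for ZES minus SES for 5.

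ZES was compared with BMS to ask what the zotarolimus-eluting stent adds. The 2 SPARC probe sets were the ones whose intervals lay below 0 for ZES, although Ssc.1458.3.A1_a_at turned to 0.10 after quantile normalization and was -0.014 with the spike-in covariate. TNC and the brightest EFEMP2 probe set had means close to those of BMS with wide intervals. In limma 0 of 10 member probe sets were called, as were 0% of all probe sets, where 8.99% had an unadjusted p under 0.05. At that unadjusted threshold 2 of 10 members passed, both lower (4.27% of all) and both of SPARC. The ZES and BMS arrays separated without overlap for 0 of 10 members, against 3.82% of all probe sets. Differences were below 0 for 8 of 10 members, against 50.9% of all probe sets, and their median was -0.85, against -0.01 over all. After quantile normalization the medians were -0.51 and 0.02. Centring each array on its median instead moved the median of all probe sets to -0.11 for ZES minus BMS, to -0.10 for ZES minus SES and to -0.04 for SES minus BMS, and turned the small FN1 Ssc.16743.1.A1_at difference for ZES minus BMS from 0.09 to -0.01.

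The comparison of ZES with SES sets the 2 related drugs side by side at 28 days, as 1 pair of compounds on stents whose doses are not given. VTN, TNC, SPARCL1 and the brightest EFEMP2 probe set had higher means around ZES, by 1.34 to 2.90, and FN1 Ssc.16743.1.S1_at had a lower one. In limma 0 of 10 members were called, against 0.0714% of all probe sets. At an unadjusted p under 0.05, 5 of 10 passed, against 10.0% of all, with 4 higher (5.66%) and 1 lower (4.38%). Differences were above 0 for 7 of 10 members, against 48.7% of all probe sets, and their median was 0.85, against -0.02 over all. The upper ends of the intervals given above lay between -0.07 for FN1 Ssc.16743.1.S1_at and 4.92 for VTN on the log2 scale, and these arrays neither separate the drugs in their effect on the members nor show that they act alike. Over all 3 stent types together, the F test of limma called 0 of 10 members, against 0.345% of all probe sets, and 7 passed at an unadjusted p under 0.05, against 13.4%. The comparisons share their arrays, 4 of each stent type, and their results are not independent of each other.

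The members were not alike across the 12 arrays. TNC and SPARCL1, each by its brightest probe set, had a Pearson correlation of 0.95 over the 12 arrays, and VTN correlated with SPARCL1 at 0.92 and with TNC at 0.89. FN1 ran the other way, with correlations between -0.85 with VTN and -0.66 with SPARC. These are descriptions over arrays that share pigs, stent types and scaling. The genes whose signal followed each member most closely, of 5792 compared, were SLC2A3 (0.97), PGM2 (0.97) and LDHA (0.96) for FN1. For VTN they were PHLDA3 (0.96), DES (0.94) and ITIH5 (0.94). For TNC they were AEBP1 (0.97), MYL9 (0.95) and SPARCL1 (0.95), and for SPARCL1 they were ITIH5 (0.98), TAGLN (0.98) and AEBP1 (0.98). EFEMP2 was followed by MARVELD1 (0.98), COL4A2 (0.95) and LAMB2 (0.94). COL4A2, a chain of basement membrane collagen, fell by 2.04 for SES minus BMS (adjusted p = 0.0471), a call that leaving out any one array but SES 4 or ZES 4 took past 0.05 (adjusted p between 0.0528 and 0.210). SPARC Ssc.1458.3.A1_a_at was followed by RPS18 (0.97), RPS25 (0.96) and ACTB (0.96), which differed by -0.84, -0.89 and -0.84 for SES minus BMS and by -0.69, -0.69 and -0.80 for ZES minus BMS.

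Smooth muscle and fibroblast markers moved with TNC and SPARCL1 across the arrays. The mean log2 signal of the 12 measured contractile genes was 9.85, 13.02, 12.10 and 12.10 on ZES arrays, 9.34, 9.08, 9.61 and 11.75 on SES arrays, and 12.49, 12.66, 11.76 and 11.51 on BMS arrays. SES 1, 2 and 3 and ZES 1 were the low arrays, as they were for TNC and SPARCL1, and SES 4 lay within the BMS range. For SES minus BMS 12 of the 12 genes had a difference below 0 (median -2.12, against -0.02 over all probe sets), although 0 were called. Fibroblast and adventitial markers, 10 genes, averaged 10.48, 11.65, 11.06 and 11.31 on ZES arrays, 10.67, 10.69, 10.42 and 11.24 on SES arrays, and 11.22, 11.33, 11.49 and 11.06 on BMS arrays. Their 4 lowest arrays were again ZES 1 and SES 1, 2 and 3, with SES 4 within the BMS range. For SES minus BMS 7 of the 10 had a difference below 0 (median -0.61), with 0 called. The part of either cell type in the member differences was not tested. T and NK cell markers, 6 genes, spanned 5.17 to 7.06 with ZES, 6.09 to 7.53 with SES and 4.55 to 5.88 with BMS, with ZES 1 and SES 1, 2 and 3 as the 4 highest arrays. Of these genes 1, CD3E of the T cell receptor complex, which lay above background on 0 BMS arrays, rose for SES minus BMS (adjusted p = 0.0172, and between 0.0511 and 0.112 without SES 1, 2 or 3). The call was also lost with artery as a further term (adjusted p = 0.0780) and with the spike-in (adjusted p = 0.676) or GAPDH control (adjusted p = 0.527) as a covariate. Without both SES 1 and SES 2 the adjusted p was 0.223, and without both SES 3 and SES 4 it was 0.0747. CD3E was named after its values were seen. Monocyte and macrophage markers, 7 genes, spanned 9.68 to 10.38 with ZES, 9.91 to 10.68 with SES and 9.45 to 11.11 with BMS, with 0 called. Endothelial markers, 9 genes, spanned 7.01 to 8.08 with ZES, 6.55 to 7.24 with SES and 5.83 to 6.50 with BMS, with 0 called. The 3 adipocyte markers had 0 called and a median SES minus BMS difference of -0.04.

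**Figure D3:**
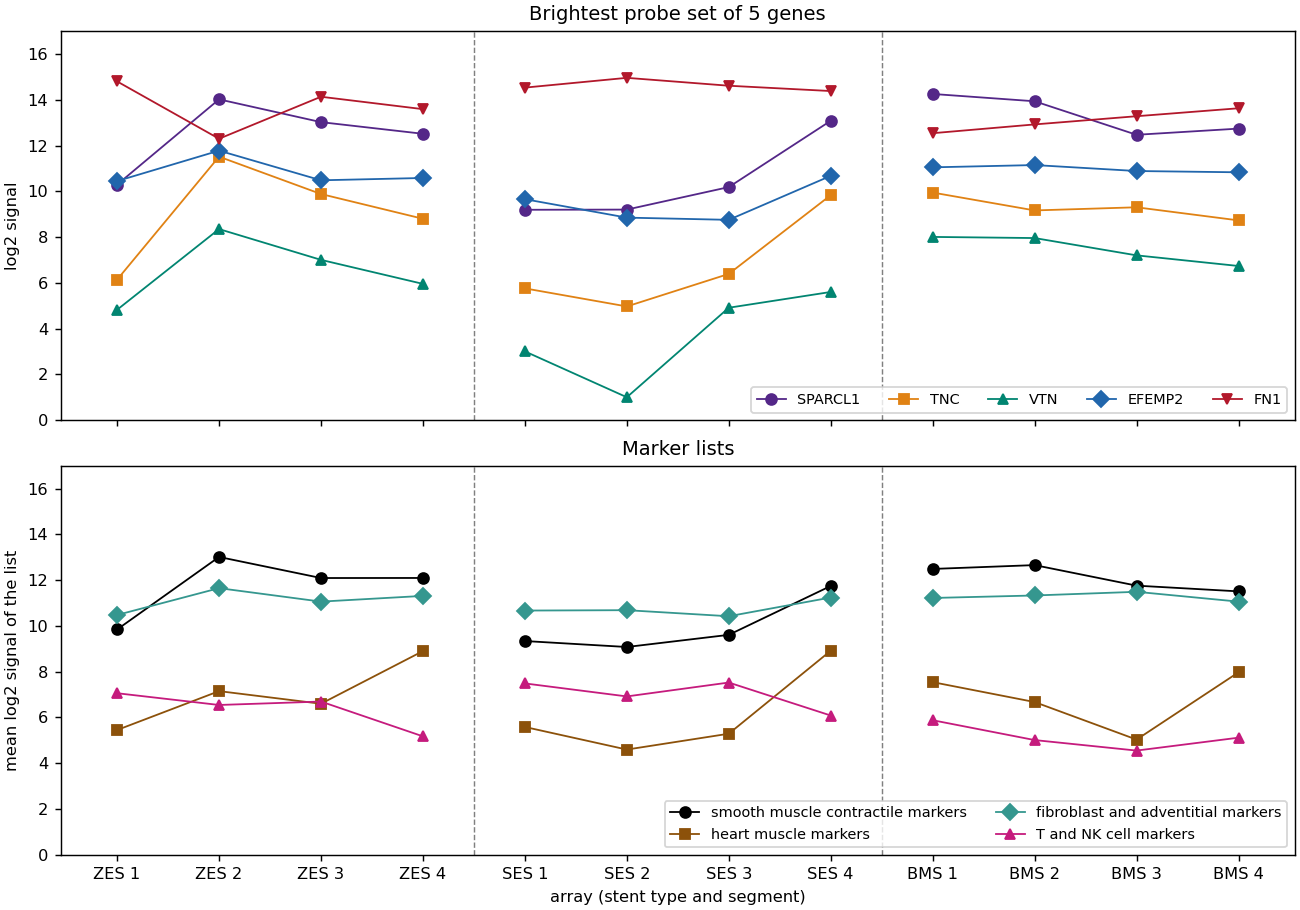
Upper panel: log2 signal of the brightest probe set of SPARCL1, TNC, VTN, EFEMP2 and FN1 on each of the 12 arrays. Lower panel: mean log2 signal of 4 marker lists on the same arrays; lines join the arrays of a stent type only to guide the eye. ZES 1 and SES 1, 2 and 3 are low for SPARCL1, TNC and smooth muscle markers and high for FN1.

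Heart muscle markers were brightest on 3 of the LAD arrays, but the arteries overlapped. Their mean over 9 genes was 5.45, 7.15, 6.60 and 8.90 on ZES arrays, 5.58, 4.60, 5.29 and 8.92 on SES arrays, and 7.54, 6.67, 5.03 and 7.97 on BMS arrays. The 3 highest arrays, SES 4, ZES 4 and BMS 4, were all from the LAD, while BMS 1 from the RCA lay above BMS 2 and ZES 2 from the LAD. SES had a single LAD segment, SES 4, so stent type and artery overlap in part. Within the RCA, with 2 segments a group, SES minus BMS was -3.95 for TNC, -4.65 for VTN, -3.67 for SPARCL1, -2.17 for EFEMP2 Ssc.4267.1.A1_at, -2.47 for SPARC Ssc.1458.4.A1_at and 1.88 for FN1 Ssc.16743.1.S1_at. Within the LAD, where 1 SES segment met 2 BMS segments, the same differences were 0.88, -1.75, -0.26, -0.31, -1.09 and 1.11. With artery as a further term, an alternative chosen after seeing the data, SES minus BMS was -1.93 for TNC, -3.42 for VTN, -2.27 for SPARCL1 and 1.47 for FN1, and 0 of 10 members were called. For ZES minus BMS, FN1 Ssc.16743.1.S1_at was 1.56 within the RCA and -0.33 within the LAD.

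The LAD was compared with the RCA inside the 5 pigs that gave both. The LAD segments had more SPARCL1 signal on average, but in an uneven way. LAD minus RCA for SPARCL1 was 3.73 and -0.51 in the ZES pigs, 2.90 in the SES pig and -0.32 and 0.27 in the BMS pigs. It averaged 1.21 (SE 0.55, interval 0.02 to 2.41, adjusted p = 0.723). TNC followed the same pigs, with 5.38 and -1.08 in the ZES pigs, 3.44 in the SES pig and -0.78 and -0.57 in the BMS pigs, and averaged 1.28 (interval -0.51 to 3.06, adjusted p = 0.774). EFEMP2 Ssc.4267.1.A1_at was higher in the LAD in 4 of 5 pigs, by 0.68 on average (interval -0.08 to 1.44, adjusted p = 0.730), and FN1 Ssc.16743.1.S1_at in 2 of 5, with -0.51 on average (interval -1.32 to 0.30, adjusted p = 0.790). The fit called 0 of 10 members and 0% of all probe sets, and 1 of 10, SPARCL1, had an unadjusted p under 0.05, against 6.86% of all. In 4 of 10 members, both ZES pigs had one sign and both BMS pigs the other, against 17.4% of all probe sets. In the same comparison 12 of 12 smooth muscle markers had a difference above 0 (median 1.0), against a median of 0.05 over all probe sets. So did 9 of 9 heart muscle markers (median 1.75), with 0 called in either list. Both lists name PLN as a marker, so they are not wholly separate readings.

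**Figure D4:**
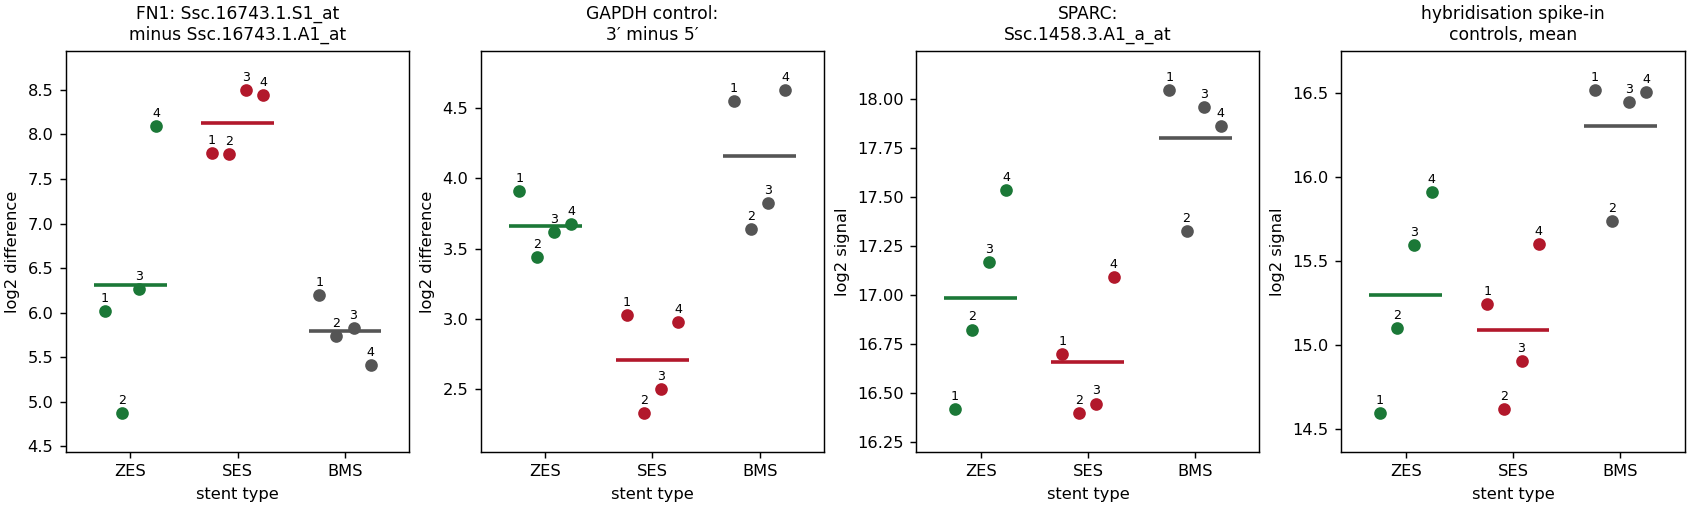
From left to right, by stent type: the gap between FN1 probe sets Ssc.16743.1.S1_at and Ssc.16743.1.A1_at, the GAPDH control gap between its 3′ and 5′ probe sets, the signal of SPARC Ssc.1458.3.A1_a_at and the mean signal of the hybridisation spike-in controls, all log2; points are arrays numbered by segment, bars are means of 4, and the axes do not start at 0. SES arrays lie apart from BMS arrays in all 4 panels, above them for FN1 and below them for the others. The second GAPDH pair on the array, not drawn here, did not separate these groups.

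Other genes of the same families were read from lists of named genes, 1 probe set a gene. Of 10 other matricellular genes measured, 0 were called in any comparison of stents. Periostin (POSTN), a matricellular protein of healing tissue, had 12.82 ± 1.67 with ZES, 14.48 ± 0.34 with SES and 13.05 ± 0.42 with BMS, and SES minus BMS was 1.43 (adjusted p = 0.225). Thrombospondin 2 (THBS2) differed by -0.93 (adjusted p = 0.193) and matrix Gla protein (MGP), an inhibitor of vessel calcification, by -1.09 (adjusted p = 0.123) in the same comparison. The list as a whole had 7 differences above 0 and 3 below, with a median of 0.49. The members' median of -1.32 was taken over probe sets, several of which share a gene, and not over 1 probe set a gene. Members and lists were both chosen with earlier results known, and the difference between the medians was not tested. Of 7 genes of fibulins and elastic fibres, 0 were called, and LOXL1, MFAP2 and EMILIN2 differed by -0.93, -0.75 and 0.81 for SES minus BMS (adjusted p = 0.556, 0.537 and 0.606). In that list 6 differences were below 0 and 1, of EMILIN2, was above, with a median of -0.58.

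Among 6 other adhesive proteins, the laminin chain LAMB2, a part of basement membranes including that around smooth muscle cells, fell around SES. Its signals were 9.78, 11.32, 10.09 and 10.27 on ZES arrays, 7.36, 7.56, 7.15 and 9.54 on SES arrays, and 10.61, 10.36, 9.71 and 10.65 on BMS arrays. All SES arrays lay below all ZES and all BMS arrays, with SES 4 again the highest of its group. SES minus BMS was -2.43 (SE 0.48, adjusted p = 0.0290), ZES minus SES was 2.46 (adjusted p = 0.0544) and ZES minus BMS was 0.03 (adjusted p = 0.986). Of the 6 genes, 4 had an SES minus BMS difference below 0 and 2 above, with a median of -0.30. LAMB2 was the only one of the 6 that was called. The call was lost (adjusted p between 0.0638 and 0.153, difference between -2.41 and -2.18) without SES 1, SES 2, SES 3, BMS 1 or BMS 2, each left out alone. It was also lost without a variance trend (adjusted p = 0.120), with artery as a further term (adjusted p = 0.0946), and with the spike-in (adjusted p = 0.793) or GAPDH control (adjusted p = 0.819) as a covariate.

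Of 11 integrins, syndecans and adhesion-site genes, 0 were called. For SES minus BMS, 7 of the 11 had a difference above 0 and 4 below, with a median of 0.06. The genes named by smallest adjusted p were all among those below 0. ITGA8, an integrin chain that binds fibronectin and tenascin-C, differed by -1.73 (adjusted p = 0.0776). ITGB5, a chain of a vitronectin receptor, differed by -1.14 (adjusted p = 0.169) and vinculin (VCL), which links integrins to actin, by -0.85 (adjusted p = 0.296).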

How the data were processed

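RNA of 12 stented artery segments was extracted, and amplified cDNA was labelled with biotin and hybridised to an Affymetrix porcine array, per the labels' protocols. The authors deposited log2 signals, and Affymetrix Expression Console 5.0 with MAS5 is named in the submitters' processing notes. The log2 scale is inferred: once the values are raised from it, the trimmed means of the arrays nearly coincide. MAS5 settings and detection calls are not stated in the labels.

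Of the probe sets other than 124 controls, the 30% of lowest mean (cutoff 4.30) were dropped and 16799 kept, with the deposited scaling. The fit was limma 3.58.1 (R 4.3.3, statmod 1.5.0) over all 12 arrays with stent type as a fixed term, pig as a random block (consensus correlation -0.0322) and eBayes with a trend. For LAD and RCA, 10 arrays were fitted with pig as a fixed block. P-values are two-sided and were adjusted over all 16799 probe sets by Benjamini-Hochberg, with a threshold of 0.05 and 95% intervals. Probe-set gaps and array controls were compared by exact permutation over arrays, with the pig left out of account, 12 tests in each family. The fit was tested on simulated data.

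Alternatives were no filter, no pig block, means per pig, median centring, quantile normalization, a pseudocount of 32, no variance trend, spike-in or GAPDH control as covariate, leaving out each array or pig, and artery as a term. The text names all probe sets of the 6 genes, the called members of 4 related gene lists or else up to 3 a list with the smallest adjusted p for SES minus BMS, and the 3 genes most correlated with the brightest probe set of each member. ALB, APOA1, HP, FGB, APOB, SERPINA1, TTR, FGG, AHSG, TF and CD3E were named after their values were seen. The members and lists were chosen with earlier results of these data known. Precision is limited by the few arrays and animals. Probe sequences and genome positions were not used here.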

Additional observations from a re-analysis of the deposited data

Results flagged for a closer look

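The highest SES array of SPARC Ssc.1458.4.A1_at, SES 4 with 9.04, stood far from the other 3 of its group, the gap to its neighbour being 0.947 of the group's range. The highest ZES array of EFEMP2 Ssc.4267.1.A1_at, ZES 2 with 11.78, did so with 0.898 of the range. Of 30 groups of 4 arrays examined, these 2 passed Dixon's critical value, and chance alone gives about 1 in 20 such groups.

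LAD minus RCA had one sign in both ZES pigs and the opposite sign in both BMS pigs for 4 of 10 probe sets, against 17.4% of all probe sets tested; the difference between the stent types was not tested. Its size, the ZES mean minus the BMS mean of LAD minus RCA, was -2.67 for FN1 Ssc.16743.1.A1_at, -1.89 for FN1 Ssc.16743.1.S1_at, 0.80 for SPARC Ssc.1458.3.A1_a_at and 3.51 for EFEMP2 Ssc.4267.2.S1_at. For FN1 Ssc.16743.1.S1_at, LAD minus RCA was -2.51 and -0.54 in the ZES pigs and 0.38 and 0.35 in the BMS pigs. For EFEMP2 Ssc.4267.2.S1_at it was 5.57 and 0.03 in the ZES pigs and -0.31 and -1.11 in the BMS pigs, and the first of these rests on ZES 1, which lay under background.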

How the results depend on the processing

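No paired analysis of stent types was possible because each pig carried only 1 stent type, so stents differ between animals only. The replicate numbers follow accession order and pair no segments across stent types. LAD and RCA were compared inside pigs, with the pig as a block. No member probe set was called in the comparisons as reported; for SES minus BMS, 1 was called, SPARC Ssc.1458.4.A1_at, with no filter, with median centring and with a pseudocount of 32. Leaving out 1 array or pig gave 0 to 6 called members for SES minus BMS, 0 to 2 for ZES minus SES, 0 to 4 in the F test, and 0 to 0 for ZES minus BMS and for LAD minus RCA. The 6, and the 2 for ZES minus SES, came without SES 4, the only LAD segment with SES. Without both ZES 1 and ZES 2, which enter only the spread, 6 were called as well (FN1 Ssc.16743.1.S1_at, both SPARC probe sets, SPARCL1, VTN and EFEMP2 Ssc.4267.1.A1_at). Without both SES 3 and SES 4, SPARCL1 (-4.15) and VTN (-5.47, both remaining SES arrays being below background) were called, without both ZES 3 and ZES 4, SPARC Ssc.1458.3.A1_a_at was, and without both BMS 3 and BMS 4, FN1 Ssc.16743.1.S1_at (1.89) was.

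Counts over all probe sets were 114 for SES minus BMS, 0 for ZES minus BMS, 12 for ZES minus SES and 58 in the F test. In the same order of comparisons they were 89, 0, 6 and 29 with arrays taken as independent, 64, 0, 4 and 47 with means per pig, and 101, 0, 8 and 33 with median centring. They were 183, 3, 48 and 108 with no filter, 199, 0, 47 and 109 with the pseudocount, 106, 0, 6 and 44 with quantile normalization, and 19, 0, 0 and 5 without a variance trend. With the spike-in covariate they were 0, 0, 5 and 2, with the GAPDH covariate 0, 0, 0 and 0, and with the artery term, chosen after seeing the data, 7, 0, 4 and 0. Leaving out 1 array or pig gave 0 to 415, 0 to 71, 0 to 158 and 0 to 314, with 0 for SES minus BMS, ZES minus SES and the F test without SES 3. The causes were not tested.

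Some differences changed sign. With the spike-in covariate, ZES minus BMS was 1.83 for TNC, -1.15 for FN1 Ssc.16743.1.A1_at, 0.15 for VTN, 0.19 for EFEMP2 Ssc.4267.1.A1_at and 0.52 for SPARCL1, and SES minus BMS was 0.98 for EFEMP2 Ssc.4267.2.S1_at. Median centring gave -0.0090 for FN1 Ssc.16743.1.A1_at, and quantile normalization 0.10 for SPARC Ssc.1458.3.A1_a_at, both for ZES minus BMS. With the GAPDH covariate, ZES minus SES was -0.050 for SPARC Ssc.1458.3.A1_a_at, 0.46 for EFEMP2 Ssc.4267.2.S1_at and 0.25 for EFEMP2 Ssc.4267.3.S1_at. Over the sets with an array or pig left out, ZES minus BMS ran from -1.04 to 0.79 for TNC, from -0.62 to 0.80 for FN1 Ssc.16743.1.A1_at and from -0.48 to 0.13 for EFEMP2 Ssc.4267.1.A1_at. ZES minus SES ran from -1.59 to 0.31 for EFEMP2 Ssc.4267.2.S1_at, from -0.87 to 0.26 for EFEMP2 Ssc.4267.3.S1_at and from -0.039 to 0.69 for SPARC Ssc.1458.3.A1_a_at. LAD minus RCA ran from -0.57 to 0.34 for EFEMP2 Ssc.4267.3.S1_at, from -0.32 to 1.35 for EFEMP2 Ssc.4267.2.S1_at, from -0.010 to 0.33 for SPARC Ssc.1458.3.A1_a_at, from -0.22 to 0.93 for VTN and from -0.78 to 0.022 for FN1 Ssc.16743.1.A1_at. The probe-set gap ran from -0.72 to 0.040 for SPARC (ZES minus SES) and from -0.070 to 1.0 for FN1 (ZES minus BMS). For SES minus BMS, TNC ran from -3.92 to -1.17, VTN from -5.47 to -2.22 and SPARCL1 from -4.15 to -1.72. Signals near background limit VTN and the dimmer EFEMP2 and FN1 probe sets.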
